A study of Mus musculus with 2 samples.

Results

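The genes described here are the 3 MYB transcription factor genes of the mouse (Myb, Mybl1 and Mybl2), 4 genes for subunits of the MuvB complex (Lin9, Lin37, Lin52 and Lin54) and the forkhead factor gene Foxm1. They were taken by symbol, and all 8 were found among the 43346 genes with an Ensembl identifier in the gene tables. The samples are of MEL, a long-established murine erythroleukemia line whose cells resemble early precursors of red blood cells. Polyadenylated RNA was sequenced single-end in 2 libraries, labelled biological replicates 1 and 2 of a single group. The labels name no inducer, other treatment, genotype change or subclone, so no condition was compared with another and every value describes this line as cultured.

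MYB proteins bind DNA through tandem helix-turn-helix repeats. Myb (c-Myb) is the member of immature blood cells, where it keeps progenitors dividing and is shut down as red cells mature, and its overexpression blocks the differentiation of MEL cells. Mybl1 (A-Myb) is best known as the factor of meiosis in the testis. Mybl2 (B-Myb) is made in dividing cells of most tissues. The MuvB core is a set of scaffold and DNA-binding proteins with changing partners: with p130 or p107 and E2F4 it forms the DREAM repressor of resting cells, and with MYBL2 and then FOXM1 it activates genes of mitosis.

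Of the 67735380 expected counts of replicate 1 and the 79923143 of replicate 2, the 8 genes took 0.0642% and 0.0719%. A count of 0 would allow a share of up to 4.43e-06% in replicate 1 and 3.75e-06% in replicate 2, for counting error only. All 8 erythroid marker genes were at 10 TPM or more in both replicates, with summed levels of 4854 and 6448 TPM. TPM is a relative abundance of transcripts corrected for their length. Of 12 markers of other cells, only Itga2b and Gp9, both megakaryocyte genes, reached 1 TPM in both replicates. Their list summed to 27.0 and 52.2 TPM. The T cell marker Cd3e and the fibroblast marker Dcn had no count, and the endothelial marker Cdh5 had 1 in replicate 2, while the fibroblast gene Col1a1 was at 0.2 and 0.46 TPM and the endothelial gene Pecam1 at 0.22 and 0.1 TPM. In bulk RNA, fewer cells with a transcript and less transcript per cell cannot be told apart.

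Sequences come before the values where they show what was told apart. The 3 MYB genes share exons 3, 4 and 5 of 72, 93 and 221 nt, which have the same lengths in each gene and are identical at 75.6% of 386 bases between Myb and Mybl1, 69.4% between Myb and Mybl2 and 67.9% between Mybl1 and Mybl2. Bases identical in all 3 genes made up 64.3% of exon 5, 62.4% of exon 4 and 47.2% of exon 3. Exon 4, which codes for part of the DNA-binding repeats, is shown as an example. It lies at chr10:21152892-21152984 (minus strand) in Myb, chr1:9690081-9690173 (minus strand) in Mybl1 and chr2:163062457-163062549 (plus strand) in Mybl2, on mm10. Capitals mark the 58 of 93 bases identical in all 3 genes.
Myb exon 4: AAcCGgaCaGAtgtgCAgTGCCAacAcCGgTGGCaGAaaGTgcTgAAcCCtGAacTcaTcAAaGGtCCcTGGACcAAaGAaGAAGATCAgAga
Mybl1 exon 4: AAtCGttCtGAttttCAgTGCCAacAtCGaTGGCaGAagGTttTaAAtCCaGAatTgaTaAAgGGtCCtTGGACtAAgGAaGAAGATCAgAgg
Mybl2 exon 4: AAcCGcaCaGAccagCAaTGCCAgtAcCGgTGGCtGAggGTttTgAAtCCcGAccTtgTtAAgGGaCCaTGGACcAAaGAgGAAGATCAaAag
The authors' model assigned reads to these genes with little ambiguity: over the 8 genes and both replicates, the posterior SD of the count was at most 0.144 times the counting error.

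Myb, at chr10:21124935-21160984 on the minus strand (ENSMUSG00000019982.10), was the most abundant of the 8 genes. It was at 142.52 TPM in replicate 1 and 115.2 TPM in replicate 2, or 129 ± 19.3 TPM (SD, n = 2), with 21656 and 18937 expected counts. This put it at the 90.1 and 87.6 percentiles of the 10045 protein-coding genes detected, that is at 1 TPM or more in both replicates, whose median was 22.3 and 22.2 TPM. Mybl2, at chr2:163054687-163084688 on the plus strand (ENSMUSG00000017861.7), was at 93.81 and 112.32 TPM, or 103 ± 13.1 TPM (SD, n = 2). Myb and Mybl2 together held most of the summed level of the 8 genes, with Myb at 41.3% and 33.7% and Mybl2 at 27.2% and 32.9% of it.

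Mybl1, at chr1:9667415-9700209 on the minus strand (ENSMUSG00000025912.12), had the lowest level of the 8 genes, with 5.73 TPM in replicate 1 and 1.87 TPM in replicate 2, or 3.80 ± 2.73 TPM (SD, n = 2). Its 967 and 442 expected counts place it well above the zero-count limit in both libraries. Foxm1, at chr6:128362967-128376146 on the plus strand (ENSMUSG00000001517.10), was at 29.78 and 47.98 TPM, or 38.9 ± 12.9 TPM (SD, n = 2). Foxm1 codes for the forkhead factor that takes over the activation of mitotic genes late in the cell cycle.

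The 4 MuvB subunit genes spread over a range of levels. Lin37, a subunit needed for repression by DREAM, was the highest of them at 30.77 and 38.08 TPM, or 34.4 ± 5.17 TPM (SD, n = 2), and lies at chr7:30555441-30559838 on the minus strand (ENSMUSG00000036845.8). Lin54, the subunit that binds the CHR element of cell cycle promoters, was at 18.9 and 11.96 TPM, or 15.4 ± 4.91 TPM (SD, n = 2), and lies at chr5:100441918-100500639 on the minus strand (ENSMUSG00000035310.11). Both subunits that carry the binding surface for MYBL2 were lower. Lin9 (chr1:180641150-180690694, plus strand, ENSMUSG00000058729.9) was at 16.12 and 8.48 TPM, or 12.3 ± 5.40 TPM (SD, n = 2), and Lin52 (chr12:84451422-84546145, plus strand, ENSMUSG00000085793.1) was at 7.42 and 5.49 TPM, or 6.46 ± 1.36 TPM (SD, n = 2). Lin37 and Foxm1 lay above the median of detected protein-coding genes in both replicates, and Lin54, Lin9, Lin52 and Mybl1 below it.

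**Figure D1:**
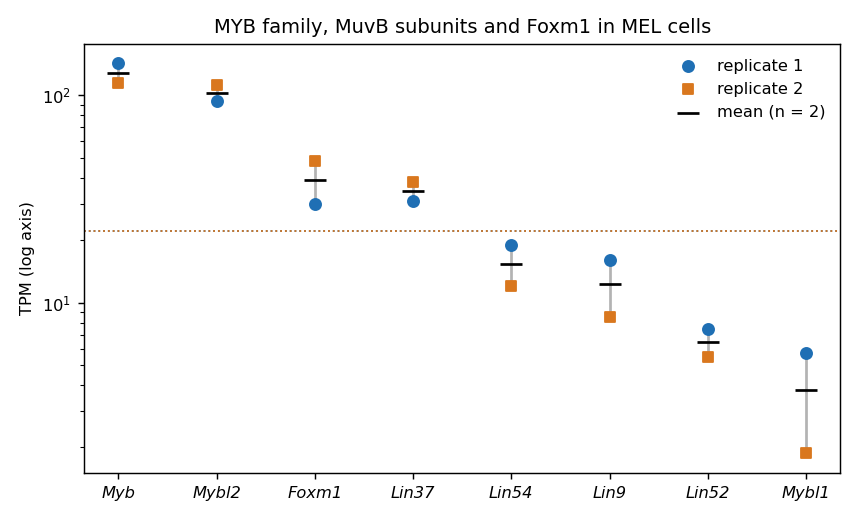
Level of each of the 8 genes in TPM on a log axis, with circles for replicate 1, squares for replicate 2, a short bar for their mean (n = 2) and dotted lines at the median of detected protein-coding genes in each replicate (22.3 and 22.2 TPM, nearly on top of each other). Myb and Mybl2 stand highest, and Mybl1 is lowest in both replicates.

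All 8 genes reached 1 TPM in both replicates, against 46.8% of the 21474 protein-coding genes, and 5 of 8 reached 10 TPM in both, against 31.4%. The 5 were Myb, Mybl2, Foxm1, Lin37 and Lin54. The order of levels was the same in both replicates except that Foxm1 and Lin37 changed places. To say whether 2 genes differ beyond the spread between replicates, the log2 ratio of their TPM was compared with the 95th percentile of the replicate difference over detected protein-coding genes, which was 1.29 on the log2 scale (2.44-fold). By this rule 21 of 28 pairs of the 8 genes stood apart, and 27 of 28 kept their sign in both replicates. The same shares were not computed for pairs of all detected genes, so these counts have no background beside them. Over 2 replicates an exact sign-flip test cannot go below a two-sided p of 0.5, and no p is given.

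Among genes next to each other in the order, Mybl2 and Foxm1 were the one pair that stood apart, at 2.71-fold (log2 1.44 ± 0.30, SD, n = 2), and in replicate 2 alone that ratio was 1.23, inside the limit. Myb and Mybl2 were not told apart: Myb was 1.25-fold higher on average (log2 0.32 ± 0.40), with log2 ratios of 0.60 in replicate 1 and 0.04 in replicate 2. Lin37 and Lin54 did not stand apart over both replicates (2.27-fold, with log2 ratios of 0.70 and 1.66), nor did Lin54 and Lin9 (1.28-fold). Over the paralogs, Myb was 37.8-fold above Mybl1, with log2 ratios of 4.61 in replicate 1 and 5.87 in replicate 2. Mybl2 was 30.3-fold above Mybl1, with log2 ratios of 4.01 and 5.83, so these sizes depend on the replicate.

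The levels nearest to those of Myb in both replicates were of Mrps15, Exosc7 and Mtx2, and Mrps15, a mitochondrial ribosome gene, was at 143.29 and 119.11 TPM. Nearest to Mybl2 were Ndufb6, Mrpl43 and Akr1b3, and among the nearest to Foxm1 were Grcc10 and Mad1l1. These are likenesses over 2 libraries of 1 cell line, by Euclidean distance of log2(TPM + 0.1).

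Among the 8 genes, the transcripts of Myb carried the largest change in share of TPM between the replicates. In shares of expected counts, a transcript of Lin9 changed more, from 70.7% to 0. The Myb transcript that changed most went from 1.33% to 44.4% on that measure. The files list 3 transcripts of Myb: Myb-201 and Myb-203 are protein-coding, and Myb-202 is a retained-intron transcript with no annotated reading frame. Myb-203 has an additional coding exon, its exon 10, of 357 nt or 119 codons at chr10:21144969-21145325, which Myb-201 skips. Myb-202 has the exon order of Myb-201 up to exon 14 and then runs 400 nt into the next intron, so that it lacks the last exon of the coding transcripts, 1355 nt long in Myb-203 with 114 coding bases. The sequences around these 2 places show where the transcripts part, with the bases past the junction in capitals. Lower case is the shared end of exon 14 of Myb-201 (chr10:21139293-21139322, minus strand) in the first 2 lines and the shared end of exon 9 (chr10:21146186-21146215) in the others.
Myb-201: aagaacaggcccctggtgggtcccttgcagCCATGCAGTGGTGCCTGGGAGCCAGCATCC
Myb-202: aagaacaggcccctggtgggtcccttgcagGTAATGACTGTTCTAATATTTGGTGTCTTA
Myb-201 exon 9 to exon 10: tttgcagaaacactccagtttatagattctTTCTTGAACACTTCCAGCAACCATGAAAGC
Myb-203 exon 9 to exon 10: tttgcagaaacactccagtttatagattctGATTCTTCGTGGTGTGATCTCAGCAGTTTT
In Myb-202 the capitals open with GT, the usual start of an intron.

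In replicate 1, Myb-203 held 51.6% and Myb-201 46.5% of the TPM of Myb, and Myb-202 held 1.92%. In replicate 2 the retained-intron transcript Myb-202 held 54.3%, Myb-203 29.4% and Myb-201 16.3%. In expected counts, Myb-202 had 287 reads in replicate 1 and 8401 in replicate 2, Myb-203 had 12353 and 7276, and Myb-201 had 9016 and 3260. The posterior SDs of these counts were 45.4 and 190 for Myb-202, 216 and 195 for Myb-203, and 227 and 288 for Myb-201. For the whole gene they were 1.84 and 1.88. The authors' credibility intervals for Myb-202 ran from 1.88 to 3.60 TPM in replicate 1 and from 58.4 to 64.4 TPM in replicate 2 and so did not overlap. Such an interval covers uncertainty within 1 library and not the spread between libraries. The share of all transcripts whose intervals did not overlap was not computed. By their TPM shares the replicates disagreed on which Myb transcript leads. The mean shares have SDs of 37.0 points for Myb-202, 21.4 for Myb-201 and 15.7 for Myb-203 (n = 2).

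**Figure D2:**
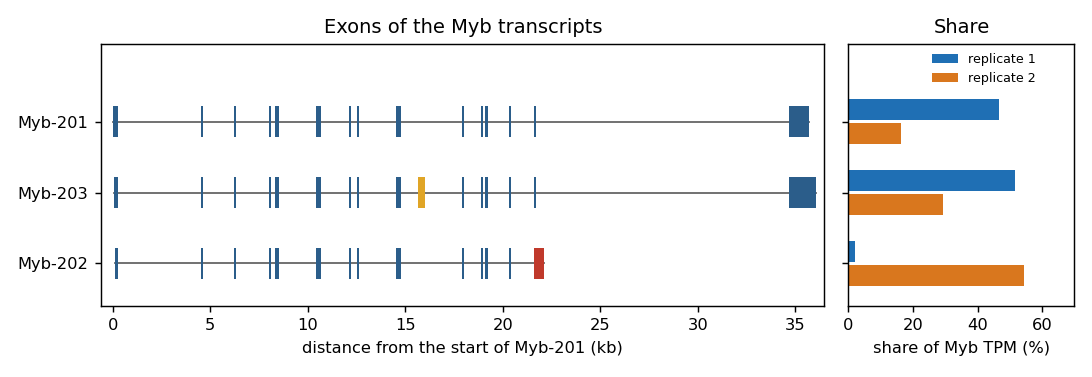
Left, exons (boxes, to scale) and introns (lines) of the 3 Myb transcripts by distance in kb from the start of Myb-201, with exon 10 of Myb-203 in yellow and the exon of Myb-202 that runs into the intron in red. Right, the share of Myb TPM in percent for each transcript and replicate, where Myb-202 goes from 1.92% in replicate 1 to 54.3% in replicate 2.

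The level of Myb depends on which transcripts are summed. Myb-201 and Myb-203 together were at 139.79 TPM in replicate 1 and 52.65 TPM in replicate 2, 2.66-fold lower in replicate 2, while the whole gene differed 1.24-fold. Exon 10 was in 52.6% and 64.3% of the TPM of these 2 coding transcripts, or 58.5% ± 8.33 (SD, n = 2). This leaves out Myb-202, which also lacks exon 10. Over all Myb transcripts, exon 10 was in 51.6% of TPM in replicate 1 and 29.4% in replicate 2. The SD of that share was 15.7 points, against 37.0 for Myb-202. The main coding transcript of Mybl2 over the summed coding transcripts of Myb was 0.353 in replicate 1 and 1.83 in replicate 2. Which of the paralogs had more coding transcript thus turned around between the replicates.

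A change of this size was rare among genes that list a retained-intron transcript. Of 4334 such protein-coding genes at 1 TPM or more in both replicates, 88 (2.03%) had a retained-intron share at least 25 points higher in replicate 2 and 102 (2.35%) one at least 25 points lower. The median change was -0.16 points, and Myb changed by 52.4 points. The alpha globin gene Hba-a1, a near-identical copy of Hba-a2 with which its reads may be shared, alone had a larger rise in share, from 5.14% to 98.2%. Over transcripts of any type, the largest share change of Myb was less extreme. It was at the 97.9 percentile of 7486 detected protein-coding genes with more than 1 transcript. GC content, which moved with the replicate ratio over all genes as given further on, was 33.3% in the 400 nt of intron, 34.5% and 35.4% in the last exons of Myb-201 and Myb-203, 59.1% in exon 10 of Myb-203 and 50.3% in exons 2 to 14 of Myb-201. Its part in the transcript shares was not tested.

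Mybl2 also changed between replicates, in a short transcript. Its coding transcript Mybl2-201 held 52.6% of TPM in replicate 1 and 86.0% in replicate 2, at 49.35 and 96.59 TPM. Mybl2-203, a processed transcript of 606 nt with no annotated reading frame, held 35.0% (32.84 TPM, 850 reads) in replicate 1 and 1.24% (1.39 TPM, 46.1 reads) in replicate 2. In expected counts, which give weight to length, it held 9.05% and 0.22% of Mybl2, and Mybl2-201 held 87.3% and 97.0%. Mybl2-203 starts with 152 nt of intron 1 and then runs into exon 2. The places where exon 2 begins are shown, with the bases that precede exon 2 in capitals and the start of exon 2 (chr2:163059501-163059540, plus strand) in lower case.
Mybl2-201: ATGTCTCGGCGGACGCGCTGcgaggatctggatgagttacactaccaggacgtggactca
Mybl2-203: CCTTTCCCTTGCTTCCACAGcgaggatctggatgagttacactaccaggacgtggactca
The capitals of Mybl2-201 begin with the start codon in exon 1, and those of Mybl2-203 end with AG, the usual end of an intron. With fewer reads on the short transcript, the mean length of Mybl2 went from 2217 nt in replicate 1 to 3241 nt in replicate 2. Its TPM was then 1.20-fold higher in replicate 2, while its scaled read count was 1.77-fold higher.

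Among the other genes, Lin9 changed most. Its leading transcript in replicate 1 was the coding Lin9-203 with 51.0% of TPM, which was listed at 0 in replicate 2. There ENSMUST00000085803.8, a transcript with no match in the later annotation used for names, held 51.4%, against 0.434% in replicate 1. The division between these 2 transcripts was uncertain: by posterior mean TPM the unmatched one held 9.74% and 42.3%, and Lin9-203 held 34.7% and 2.28%. Lin9-208, annotated for nonsense-mediated decay, went from 23.6% to 0, and Lin9-206, of the same class, from 4.65% to 21.3%. In Lin37 the coding Lin37-201 held 50.2% and 84.3%, and 2 short retained-intron transcripts, Lin37-204 (32.0% and 4.54%) and Lin37-203 (14.8% and 4.52%), were lower in replicate 2. These transcripts rest on few reads, with 183 and 41.2 for Lin37-204.

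The remaining genes kept their main transcript. Foxm1-201 held 78.9% and 81.7% of Foxm1, and Mybl1-201 held 68.8% and 74.3% of Mybl1, where Mybl1-204 (18.0% and 15.5%), Mybl1-205 (10.1% and 0) and Mybl1-202 (3.14% and 10.2%) were the others past 10% in a replicate. Lin54-201 held 66.3% and 59.2% of Lin54, followed by the retained-intron Lin54-207 (24.2% and 13.5%) and the nonsense-mediated decay transcript Lin54-203 (0 and 11.2%). Lin52 has a single transcript in these files. Over the 8 genes, 6 had the same transcript above 50% in both replicates, which for Lin52 follows from its single transcript. No share over all genes was computed for that count. The leading transcript differed in 2 of the 7 genes that list more than 1 transcript (Myb and Lin9). This compares with 21.8% of 7486 detected protein-coding genes with more than 1 transcript. A share changed by 25 points or more in 4 of the 7 genes that list more than 1 transcript (Myb, Mybl2, Lin9 and Lin37), against 24.1% of those 7486 genes. On shares of expected counts, 2 of 7 did (Myb and Lin9), against 14.9%.

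**Figure D3:**
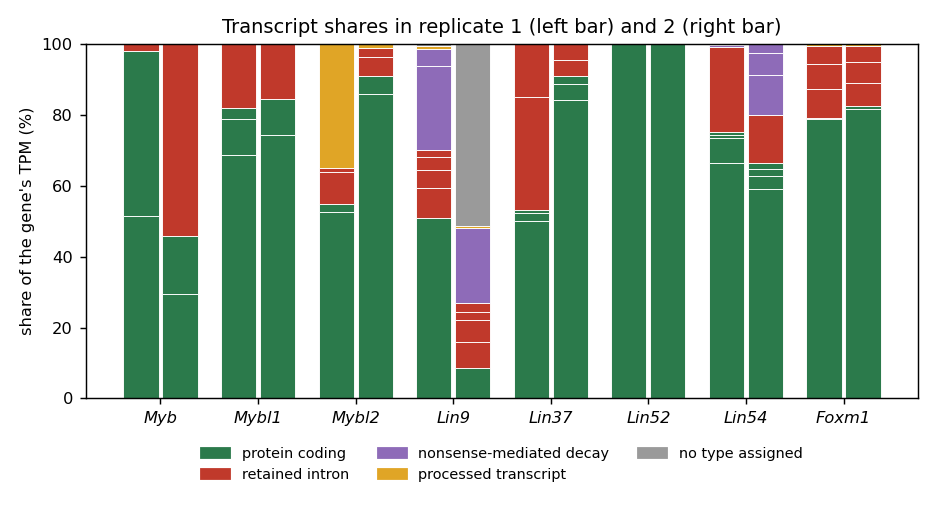
Share of each gene's TPM in percent by transcript, replicate 1 in the left bar and replicate 2 in the right bar of each pair, with each piece 1 transcript and colours for its annotated type. Retained-intron transcripts hold more of Myb in replicate 2 and less of Lin37, and the processed transcript of Mybl2 holds 35.0% in replicate 1 and 1.24% in replicate 2.

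Whole-gene reads were then compared between the replicates, as scaled expected counts. Mybl2, Foxm1 and Lin37 were higher in replicate 2, by log2 ratios of 0.83, 0.74 and 0.70. Myb, Lin52, Lin9, Lin54 and Mybl1 were lower in replicate 2, at -0.54, -0.43, -0.62, -0.75 and -1.47. Mybl1 alone passed 2-fold, at 2.78-fold lower in replicate 2 (95% interval of the log2 ratio -1.64 to -1.31, exact binomial, counting error only). So 1 of 8 genes was past 2-fold in either direction and 0 were past it upward, against 20.4% of the 15251 genes tested in either direction, 8.44% upward and 12% downward. This is 1 library against 1 library, so these ratios measure the spread between the replicates of MEL cells and no condition.

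The direction of all 8 genes followed the GC content of their transcripts. The transcripts of Mybl2 and Lin37 have 56.3% GC and that of Foxm1 54.6%, above the median of 50.3% over 10030 detected protein-coding genes. Those of Myb (47.0%), Lin52 (44.3%), Lin9 (42.5%), Lin54 (41.8%) and Mybl1 (37.0%) lie below it. Over the 10030 genes the replicate ratio had a Spearman correlation of 0.865 with GC content and -0.25 with length. This is a description across genes, which share the 2 libraries and are not replicates. In 5 equal groups of genes by rising GC, the median log2 ratio went from -0.88 through -0.39, 0.05 and 0.48 to 0.79.

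The trend over GC was then removed, an alternative chosen after seeing the data. Before removal, 16.1% of the 11816 genes with a GC value passed 2-fold. After removal, none of the 8 genes did, against 3.32% of those 11816 genes. The log2 ratio was then -0.14 for Mybl1, -0.21 for Myb, 0.16 for Mybl2, 0.21 for Foxm1 and 0.04 for Lin37. Lin9, Lin52 and Lin54 changed sign, to 0.17, 0.19 and 0.12. The correction applies to whole-gene counts and not to the transcript shares.

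**Figure D4:**
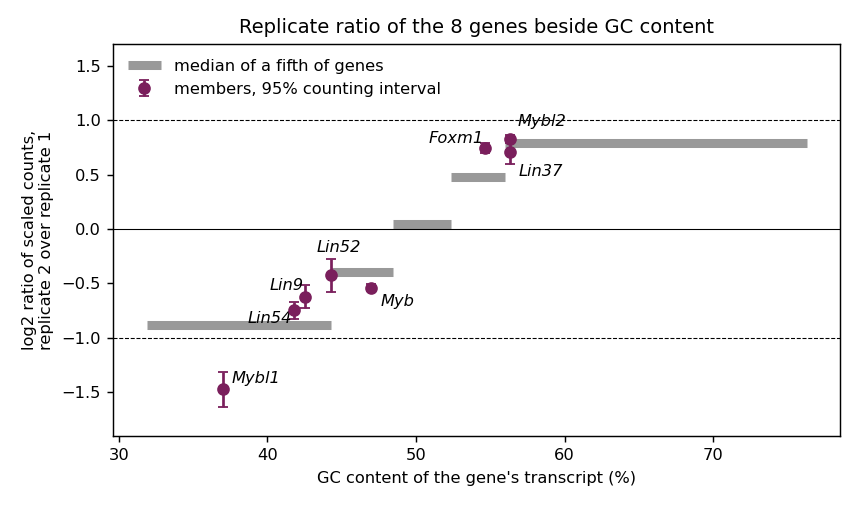
Log2 ratio of scaled counts, replicate 2 over replicate 1, against GC content in percent for the 8 genes (points, with 95% counting intervals) beside the median ratio of 5 equal groups of detected protein-coding genes by GC (grey bars over their GC range), with dashed lines at 2-fold. The 3 genes above 50.3% GC are higher in replicate 2, the 5 below are lower, and only Mybl1 lies past a dashed line.

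Summing only the protein-coding transcripts gave other values for some genes. Lin9 was at 8.22 TPM in replicate 1 and 0.72 TPM in replicate 2 on that sum, Lin37 at 16.37 and 34.62, Mybl2 at 51.42 and 102.12, and Mybl1 at 4.70 and 1.58. With the coding transcripts of Myb described above, 4 of 8 genes (Myb, Mybl1, Lin9 and Lin37) then differed at least 2-fold. The share of all genes past 2-fold on this sum was not computed, so the count has no background beside it. For Lin9 the unmatched transcript, which held 4.35 TPM in replicate 2, is not in this sum.

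The partners that turn MuvB into DREAM were all detected, 8 of 8 at 1 TPM in both replicates and 6 of 8 at 10 TPM, with a median of 23.9 TPM against 23.0 TPM over detected protein-coding genes. Of all protein-coding genes, 46.8% were at 1 TPM and 31.4% at 10 TPM in both replicates. Tfdp1, the dimer partner of E2F factors, led at 292 ± 42.5 TPM, then E2f4 at 175 ± 80.2 and Rbbp4, the histone-binding subunit of MuvB, at 153 ± 81.6 TPM (SD, n = 2). Rbbp4 was 12.1-fold above Lin9. E2f4 was 28.6-fold above E2f5 (5.79 ± 1.41 TPM), with log2 ratios of 4.11 in replicate 1 and 5.57 in replicate 2. Rbl1, which codes for p107, was 3.11-fold above Rbl2, which codes for p130 (21.1 ± 10.5 and 6.30 ± 0.06 TPM), with log2 ratios of 2.17 and 1.10, the latter inside the limit of 1.29. Dyrk1a, the kinase that acts on LIN52 in DREAM assembly, was at 26.7 ± 2.23 TPM and Tfdp2 at 15.3 ± 5.27 TPM. Lin54 was 11.3-fold above Tesmin, its paralog of the testis, which was at 0.92 and 1.65 TPM, and their log2 ratios were 4.22 and 2.78.

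Genes of the G2/M program that MYBL2, MuvB and FOXM1 activate were detected in 40 of 40 cases, 39 of them at 10 TPM, with a median of 86.4 TPM. Among all protein-coding genes the shares were 46.8% detected and 31.4% at 10 TPM. The highest were Top2a, a topoisomerase of mitotic chromosomes, at 367 ± 93.5 TPM, the centromere histone gene Cenpa at 355 ± 37.2, the proliferation marker Mki67 at 276 ± 99.8, Ube2c at 209 ± 95.3, Birc5 at 198 ± 51.0 and Cks2 at 188 ± 3.23 (SD, n = 2). The lowest were Gas2l3 at 3.21 ± 1.21 TPM, Kif14 at 11.9 ± 0.56, Cdc25c at 13.7 ± 0.87 and the checkpoint kinase gene Ttk at 20.5 ± 11.9. Every one of these named genes but Gas2l3 and Kif14 was above Lin9 on average. Between the replicates 13 of the 40 were higher and 27 lower in replicate 2, with a median log2 ratio of -0.20, and 1 gene (Cdca3) was past 2-fold upward and 8 downward, against 8.44% and 12% of all genes tested. The median GC content was 52.5% for those higher and 45.7% for those lower in replicate 2.

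The G1/S genes that E2F factors and DREAM control were detected in 15 of 15 cases, against 46.8% of all protein-coding genes. All 15 were at 10 TPM, against 31.4%, with a median of 62.7 TPM. Pcna, the sliding clamp of DNA replication, was the highest at 464 ± 76.4 TPM, and the helicase gene Mcm6 followed at 242 ± 91.7 TPM. Among the lower ones, Orc1, a gene of the origin recognition complex, was at 23.5 ± 4.54 TPM. Kinases and regulators that act on MYBL2 and FOXM1 were detected in 11 of 11 cases, against 46.8% of all protein-coding genes. Their median was 77.1 TPM. Cdk4 led at 958 ± 51.1 TPM and Cdk1 was at 176 ± 15.7 TPM, while Chek2 was at 15.2 ± 2.16 and Melk at 17.7 ± 5.47 TPM. In this list Fzr1, an activator of the anaphase-promoting complex, was past 2-fold upward in replicate 2, at a log2 ratio of 1.21.

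Cofactors and modifiers of MYB were detected in 16 of 16 cases, against 46.8% of all protein-coding genes, with a median of 26.1 TPM. Among the highest were Mybbp1a, which codes for a MYB-binding protein of the nucleolus, at 397 ± 102 TPM, Ppid at 336 ± 258, Psip1 at 205 ± 117, Men1 at 93.4 ± 9.28 and Senp1 at 79.6 ± 9.70 TPM. Both coactivator genes whose products bind the MYB activation domain were lower, with Ep300 at 21.8 ± 1.43 TPM and Crebbp, the lowest of the list, at 4.35 ± 1.02 TPM. Ppid and Psip1 were past 2-fold downward in replicate 2, at log2 ratios of -1.44 and -1.31, which makes 2 of 16 genes against 12% of all genes tested.

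Of 20 genes known to be regulated by MYB in blood progenitors, 12 were detected, against 46.8% of all protein-coding genes. At 10 TPM there were 7 of 20, against 31.4%. The median over all 20 was 4.98 TPM, against 0.49 TPM over all protein-coding genes. Myc was at 256 ± 48.2 TPM, the erythroid factor gene Klf1 at 156 ± 59.9, Lmo2 at 145 ± 9.33, Cdk6 at 45.5 ± 14.4, Bcl2 at 35.8 ± 8.95 and Ada at 24.6 ± 4.24 TPM (SD, n = 2). At the other end, Rag2 and Hoxa9 were listed at 0 in both replicates, and Gfi1 and Elane, genes of early myeloid cells, were at or below 0.06 TPM in each. Myeloid genes were not uniformly low: Prtn3, a granule protease gene, was at 14.05 and 23.89 TPM and Cebpa at 2.67 and 3.12 TPM. The list thus held 7 genes at 10 TPM or more in both replicates and 8 that did not reach 1 TPM in both. Of its 15 tested genes, 0 were past 2-fold between replicates, against 20.4% of all genes tested.

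Other genes with MYB or SANT repeats were detected in 10 of 10 cases, against 46.8% of all protein-coding genes. Their median was 32.1 TPM. Cdc5l, a spliceosome gene with MYB repeats, was at 71.9 ± 26.7 TPM, below Myb and Mybl2, and Mypop was the lowest at 1.48 ± 0.68 TPM. Of 18 other forkhead genes 11 were detected, beside the same 46.8% of all protein-coding genes. Foxk2 was the highest of them at 46.5 ± 7.12 TPM, beside 38.9 TPM for Foxm1. Foxa1, Foxa2, Foxf1 and Foxl2 were listed at 0.

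**Figure D5:**
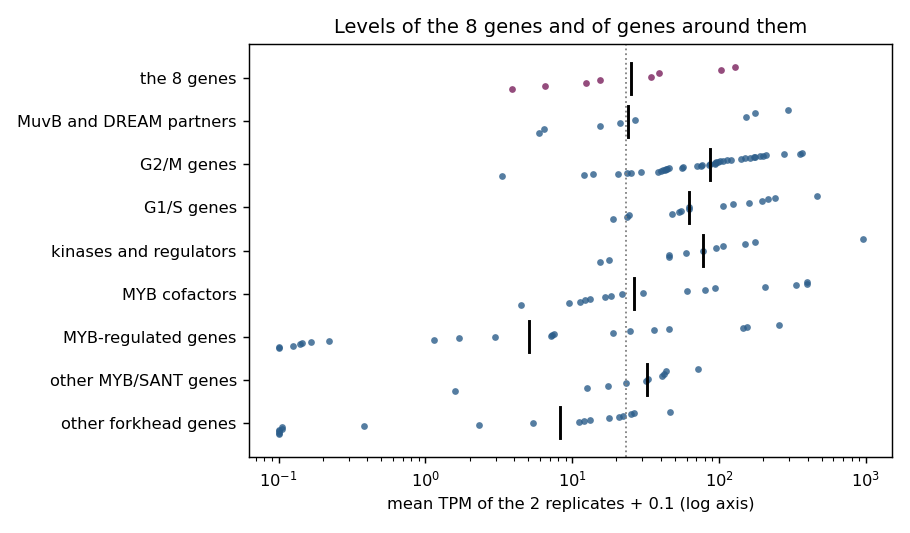
Mean TPM of the 2 replicates plus 0.1, on a log axis, for each gene (points) of the 8 genes and of 8 lists around them, with a black bar at each list's median and a dotted line at the median of detected protein-coding genes (23.0 TPM). The G2/M list has a median of 86.4 TPM, and the MYB-regulated and forkhead lists each hold genes at or near 0.

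Around Myb, the nearest protein-coding genes were Ahi1, 44506 nt away, at 3.75 and 2.3 TPM, and Hbs1l, 134995 nt away, at 112.76 and 70.03 TPM. The interval between Myb and Hbs1l is known for regulatory elements of Myb in red cell precursors. Several of the 8 genes overlap or adjoin genes on the opposite strand, and since the use of strand is not given, their reads cannot be told apart where they overlap. Gm26577, antisense to Myb, was at 0.48 and 0.21 TPM. Hspb6, opposite Lin37, was at 4.16 and 9.44 TPM. Rhno1, on the opposite strand 56 nt from Foxm1, was at 61.55 and 67.12 TPM, above Foxm1 in both replicates.

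Promoter windows of 300 bases, from 250 before to 50 after a RefSeq start on GRCm38.p6 (mm10), were at hand for Myb, Mybl2, Lin37, Lin52 and Lin54, the last with 2 windows. They were searched on both strands for motifs of this pathway. The CHR-type motif TTTGAA lay in windows of Lin37 and Lin54 (17.9% of all 32851 windows hold it) and TTCGAA in 1 of Lin54 (1.56%). CCAAT lay in Lin37, Lin52 and Lin54 (37.4%), the forkhead motif TAAACA in Myb (13.4%) and the MYB motif AACGG in none (17.4%). The E2F-type motif GCGGGAA lay in Lin52 (4.60%). A related form, GGCGGGA, searched after the sequences were seen, lay in windows of all 5 genes (11.3% of all windows), and in Lin52 one of its matches overlaps that of GCGGGAA. It is shown for the 2 most abundant genes, in capitals, up to the base before the start: chr10:21160985-21161018 on the minus strand for Myb, where it ends 3 bases before the start, and chr2:163054597-163054634 on the plus strand for Mybl2.
Myb promoter: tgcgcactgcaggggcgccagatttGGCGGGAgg
Mybl2 promoter: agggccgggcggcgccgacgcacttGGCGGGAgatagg
A match says only that these letters are present in the window.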

How the data were processed

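Per the labels and the text files that accompany the samples, polyadenylated RNA of MEL cells was aligned to mm10 and quantified with the GENCODE M4 annotation. The aligner, quantifier and strand setting were not given in the sources used here. The deposited expected counts estimate how many reads came from each gene or transcript. The deposited TPM and FPKM values were scaled by effective length by the authors, per the file headers, and the deposited score columns give the posterior SD of counts and the bounds of credibility intervals of TPM. Of 69691 listed features, 26345 without an Ensembl identifier were left out of library sizes. Symbols, types and exons came from GENCODE M21, which matched 101510 of 103639 transcripts, and lengths of some differ between releases. Promoter sequences came from RefSeq (GRCm38.p6), and exon sequences from the M21 transcripts.

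The 8 genes, the gene lists and the pairs were chosen with earlier results of these data known. Named are all 8 genes and Myb transcripts, other transcripts at 10% or more, up to 6 highest and 4 lowest genes of a list, listed pairs, neighbouring genes and the 3 nearest genes by level; listed genes past 2-fold (Cdca3, Fzr1), Prtn3, Cebpa and the single markers of other cells were named after their values were seen. Values of some single listed genes are left out here. Ratios between replicates used expected counts rounded to whole numbers, a summed count of at least 20, TMM factors from edgeR 4.0.16 and a prior count of 0.5, with exact binomial 95% intervals. Pairs used a pseudocount of 0.1. GC content is that of 1 annotated transcript per gene, and its trend was removed with a lowess curve (fraction 0.3). No test was run, since there is 1 group, and an exact sign-flip test of pairs over 2 replicates cannot go below a two-sided p of 0.5. The scaled count ratio and its interval were tested on simulated counts that held no GC trend. The other steps were not tested in this way. Alternatives were FPKM, posterior mean TPM, TPM rescaled over genes, other pseudocounts and minimums, DESeq2 1.42.0 size factors, library totals, shares of counts, and each replicate left out. Other software was Python 3.11.15, R 4.3.3, statsmodels 0.14.6, scipy 1.17.1, pandas 2.3.3, matplotlib 3.10.9 and numpy 2.4.6.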

Additional observations from a re-analysis of the deposited data

How the results depend on the processing

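No paired analysis was possible because there is 1 group. For the main counts of the report, 33 of 39 recomputed values stayed within 1.5 times the reported one and 6 moved. Some of the 33 could not move. Another count minimum, or protein-coding genes alone, leaves the replicate ratios of the 8 genes unchanged. With no count minimum, 35.7% of all genes differed 2-fold between replicates in place of 20.4%. With the GC trend removed, 3.32% of the genes with a GC value did, against 16.1% of the same genes before. The number of the 8 genes past 2-fold was 1, 0 with the GC trend removed, and 4 on the TPM of protein-coding transcripts. For the last, no share over all genes was computed. On shares of expected counts, 2 genes in place of 4 had a transcript share changed by 25 points, and the mean share of Mybl2-203 was 4.64% in place of 18.1%. GGCGGGA in place of GCGGGAA raised the genes with a match from 1 to 5. Beyond what each setting does by its construction, the cause of these moves was not tested. Leaving out each replicate gave 5 to 6 genes at 10 TPM, 19 to 21 pairs apart and 137 to 138 detected listed genes (137 in both). The pairs Myb and Foxm1 (1.26) and Mybl2 and Foxm1 (1.23) fell inside the limit of 1.29 without replicate 1, and Lin9 and Lin37 (-0.93), Lin9 and Foxm1 (-0.88) and Lin54 and Foxm1 (-0.65) without replicate 2. Mybl1 and Lin52 (-1.50) and Lin37 and Lin54 (1.66) passed it without replicate 1, and Lin52 and Lin54 (-1.34) without replicate 2. The 8 genes kept their direction under TMM, DESeq2 size factors and library totals, under which the median log2 ratio of all genes was 0.03, 0.05 and 0.14. Of genes past 2-fold, 41.4% were higher in replicate 2 with TMM and 54.4% with library totals. Transcript shares within 1 library rest on the quantifier's division of single-end reads, and low transcripts of Lin9, Lin37 and Lin54 on few reads.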
